A study of Mus musculus
Mus spretus with 18 samples.

Results

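The longer retained introns are the 1017 autosomal introns of more than 200 bp in a table of 2243 retained intron (RI) events from mouse fibroblasts. Of the 2158 autosomal events, 1237 were longer than 200 bp, and 1017 of these had at least 20 reads in each of the 4 libraries, which left out 220. The members lie in 761 genes and span 201 to 8856 bp, with a median of 569 bp. The 785 autosomal introns of 200 bp or less that passed the same read minimum served as the comparison, so that 1802 events were tested in all.

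The study used a fibroblast line derived from an F1 hybrid of a female C57BL/6J and a male SPRET/EiJ mouse, so every library carried both parental genomes. Cells received pladienolide B at 0.1 µM (PladB) or its solvent DMSO for 4 h, and 2 libraries of mRNA were sequenced for each. All libraries come from 1 cell line, and no label says that the 2 libraries of a group came from separate cultures. The p-values therefore rest on the spread between these libraries, which may be technical. In the model of each intron, that spread was drawn toward the spread of events of similar read depth. The same series also holds tissues and embryonic stem cells of the hybrid, which are not analysed here.

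An intron is removed by the spliceosome after U1 snRNP has bound its 5′ splice site and U2 snRNP its branch site near the 3′ end. Stable contact of U2 snRNP with the branch site needs its SF3B proteins, which pladienolide B occupies. When splicing fails, the intron can stay in a polyadenylated transcript (retention), or the machinery can pass over an exon and join its neighbours (skipping). Retained introns often hold stop codons, and many such transcripts are kept in the nucleus or degraded. In mammals introns that are normally retained tend to be short.

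Retention was measured as percent spliced in (PSI), which is 0 where every transcript has lost the intron and 1 where every transcript keeps it. It was computed from 2 kinds of reads: inclusion reads cross a boundary between exon and intron, and skipping reads cross the junction of the spliced exons. Since the intron has 2 boundaries, inclusion reads were divided by a form length of 298 and skipping reads by one of 149, the same for all 1017 members. The difference in PSI is the mean of the 2 PladB libraries minus the mean of the 2 DMSO libraries. An intron was called higher or lower when its Benjamini-Hochberg adjusted p in a quasi-binomial model over the 1802 events was under 0.05 and its difference in PSI was at least 0.1.

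The median member had 174 and 228 reads in the PladB libraries and 490 and 491 in the DMSO libraries. Replicates resembled each other, with a Pearson r of PSI across members of 0.981 between the PladB libraries and 0.992 between the DMSO libraries. The median gap between replicates was 0.0231 in PSI for PladB and 0.00924 for DMSO. All 10 fibroblast markers, among them Col1a1, Fn1 and Vim, were above 1 TPM, a unit of transcript abundance as a share of the library corrected for gene length, in every library, and their summed level was 15430 and 14760 TPM in the PladB libraries against 13890 and 13170 TPM in the DMSO libraries. The growth factor receptors Pdgfra and Pdgfrb, also in that list, were lower in PladB, at 82.8 and 82.6 TPM against 441 and 437 TPM for Pdgfra and at 44.5 and 43.6 TPM against 227 and 208 TPM for Pdgfrb. The 3 endothelial, 3 muscle and 3 pluripotent markers summed to under 1 TPM in every library. Epithelial markers summed to 7.55 to 8.84 TPM, nearly all of it Cdh1, and leukocyte markers to 6.91 to 8.86 TPM, nearly all of it Cd68, while Ptprc, which encodes the leukocyte antigen CD45, reached at most 0.00289 TPM and the T cell gene Cd3e was at 0.

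Pladienolide B raised the retention of many longer introns and lowered that of few. In total, 336 of the 1017 introns (33%) were higher and 37 (3.64%) were lower, while 644 were not called. Over all 1802 events the shares called were 35.2% higher and 3% lower, so the members' shares were close to that background. The median PSI of the members was 0.290 and 0.310 in the PladB libraries and 0.0868 and 0.0780 in the DMSO libraries. Both PladB libraries lay above both DMSO libraries, a separation that gave an exact two-sided permutation p of 0.333, the smallest that 2 libraries against 2 allow. The typical intron moved little: the median difference in PSI was 0.0303, the middle 50% of introns spanned -0.00447 to 0.181, and the highest 10% exceeded 0.506. Of the 1017 members, 755 (74.2%) had PladB libraries that did not overlap the DMSO libraries, close to the 1372 (76.1%) of all 1802 events. Among the 373 called introns that held for 370, which the call itself favours, since it was made on the same libraries.

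**Figure D1:**
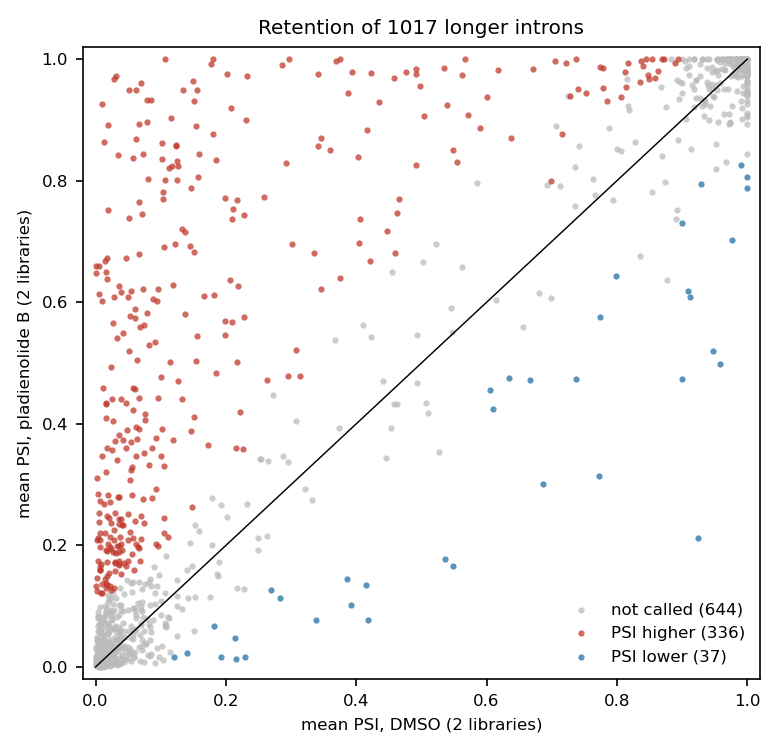
Mean PSI of each of the 1017 longer introns in the 2 DMSO libraries (horizontal) and in the 2 PladB libraries (vertical), with the line of equal PSI. Red points are the 336 introns called higher, blue the 37 called lower and grey the 644 not called; the red points fill the area above the line up to introns that move from near 0 to near 1.

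Some introns went from almost fully spliced to almost fully retained. The intron with the largest rise lies in Osgin1, a growth inhibitor induced by oxidative stress, on chromosome 8 (mm10, chr8:119442570-119442915, + strand, 346 bp). Its PSI was 0.982 and 0.963 in the PladB libraries and 0.0317 and 0.0318 in the DMSO libraries, a difference of 0.941 (adjusted p = 1.02e-116, quasi-binomial model). Its skipping reads went from 366 and 304 in DMSO to 2 and 8 in PladB, while its inclusion reads went from 24 and 20 to 223 and 417, so the rise came from both forms.

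The next rise was in Ing4, a reader of methylated histone H3 (chr6:125047941-125048175, 235 bp). PSI was 0.975 and 0.958 in PladB against 0.0272 and 0.0301 in DMSO. Only 1 and 2 skipping reads were left in the PladB libraries, against 1089 and 983 in DMSO, whereas inclusion reads numbered 78 and 92 in PladB and 61 and 61 in DMSO. The Ing4 rise was thus mostly a loss of the spliced form. This intron overlaps another member and a noncoding RefSeq gene, so part of its inclusion reads may be shared.

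In Lrdd, the gene of the p53-induced death domain protein, the 403 bp intron (chr7:141442565-141442967) had a PSI of 0.935 and 0.917 in PladB and of 0.0145 and 0.00508 in DMSO. Its inclusion reads were 174 and 264 in PladB but 3 and 1 in DMSO. Tnfaip3 encodes A20, a ubiquitin-editing enzyme that restrains NF-κB signalling. Its 699 bp intron (chr10:19003758-19004456) had 7738 and 10017 inclusion reads in PladB and 33 and 23 in DMSO. The skipping reads of this Tnfaip3 intron, 159 and 196 in PladB and 171 and 215 in DMSO, hardly moved, and PSI went from 0.0880 and 0.0508 to 0.961 and 0.962. Id1, an inhibitor of helix-loop-helix transcription factors, showed the deepest coverage among the largest rises, with at least 2249 reads in each library. PSI of its 226 bp intron (chr2:152736746-152736971) was 0.957 and 0.941 in PladB and 0.0649 and 0.0606 in DMSO.

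The other 5 of the 10 largest rises were in introns of 313 to 2301 bp. In L3mbtl2, a Polycomb-group reader of histone marks, the 1233 bp intron (chr15:81667397-81668629) had a PSI of 0.932 and 0.852 in PladB and of 0.0204 and 0.0166 in DMSO. The 1236 bp intron of Tmcc2 (chr1:132359039-132360274) stood at 0.966 and 0.931 against 0.0455 and 0.0557. E130309D02Rik held the longest of the 10, 2301 bp (chr5:143311877-143314177), with 0.866 and 0.862 in PladB and 0.0116 and 0.0132 in DMSO. Gtpbp2, a GTP-binding protein that acts in the rescue of stalled ribosomes, rose by 0.854 and Pqlc1 by 0.848 in their introns of 313 and 378 bp. The 10 were chosen only among introns whose PladB and DMSO libraries do not overlap, so their separation in the plot of single libraries was set by that rule.

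**Figure D2:**
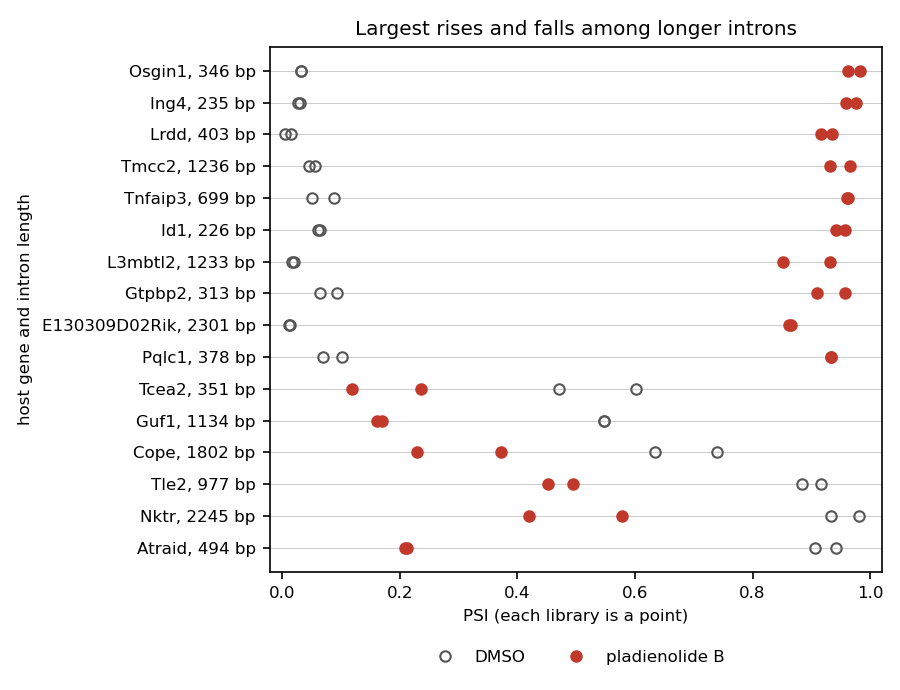
PSI in each library (filled red, PladB; open grey, DMSO) for the introns with the 10 largest rises and 6 largest falls, 1 intron for each gene, labelled by host gene and length. The PladB libraries of all 10 rises lie above 0.85 and their DMSO libraries at 0.102 or below, while in the 6 falls the DMSO libraries lie to the right of the PladB libraries. Only introns whose PladB and DMSO libraries do not overlap could be chosen.

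Falls were fewer and of a mixed kind. The largest was in Atraid, a factor of retinoic acid-induced differentiation, whose 494 bp intron (chr5:31052269-31052762) had a PSI of 0.213 and 0.210 in PladB and of 0.905 and 0.942 in DMSO. The difference was -0.713 (adjusted p = 3.14e-19). Skipping reads of Atraid were 48 and 66 in PladB against 8 and 4 in DMSO. This event, like those of Nktr, Tle2 and Cope, spans an exon that the table of skipped exon (SE) events lists, so its skipping reads join the outer exons and leave the inner exon out as well as the intron. Nktr, a cyclophilin-related protein, went from 0.933 and 0.982 in DMSO to 0.419 and 0.577 in PladB. Tle2, a Groucho corepressor, went from 0.916 and 0.884 to 0.495 and 0.453, and Cope, a coatomer subunit, from 0.634 and 0.740 to 0.230 and 0.372.

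The remaining falls among the 6 largest held no listed exon. Guf1, a GTPase of mitochondrial translation, had an 1134 bp intron (chr5:69567262-69568395) with a PSI of 0.162 and 0.170 in PladB and of 0.547 and 0.548 in DMSO. Its skipping reads were 145 and 146 in PladB against 168 and 164 in DMSO, whereas its inclusion reads were 56 and 60 against 406 and 398. Tcea2, a transcription elongation factor, had a 351 bp intron with a PSI of 0.119 and 0.236 in PladB and of 0.472 and 0.602 in DMSO. In Guf1 and Tcea2 the retained form was the one that had fewer reads.

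Events that span an exon, a split made after the values were seen, made up a large part of the falls. Of the 1017 members, 163 held an exon of the SE table, with a median PSI in DMSO of 0.928, and 14 of them (8.59%) were lower while 23 (14.1%) were higher. A total of 229 members overlapped another member, and the 1017 members covered 884 separate stretches of the genome, so overlapping members share boundary reads. Among the 671 introns that neither overlapped a member nor held an exon, 237 (35.3%) were higher and 17 (2.53%) were lower, with a median difference in PSI of 0.0356.

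Reads of each form were also compared on their own, each divided by the junction reads of the SE table in the same library. Over the 336 introns called higher, the median log2 change of skipping reads was -2.98 and that of inclusion reads 0.78. Skipping reads were at least 2-fold lower for 296 of them, and inclusion reads at least 2-fold higher for 144; both held for 107. In 189 introns the loss of the spliced form was the only change of at least 2-fold of these kinds, and in 37 the gain of the retained form was. For 101 of the 336, inclusion reads were themselves lower in PladB than in DMSO, but by less than the skipping reads, so a higher PSI did not mean more reads of the retained form there. In 30 of these 101 the inclusion reads were at least 2-fold lower. Over all 1017 introns the median log2 changes were -0.09 for inclusion and -1.15 for skipping reads, beside -0.01 and -1.15 over all 1802 events. No form was tested alone, and a library's other junctions set this scale.

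Among the 37 introns called lower, the forms split by whether the event held an exon. The 14 that held one had a median log2 change of 2.17 in skipping reads, and 9 of them were up at least 2-fold. The 23 that held none had a median of -0.08 in skipping reads and of -2.32 in inclusion reads, and 0 of them gained skipping reads by 2-fold.

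**Figure D3:**
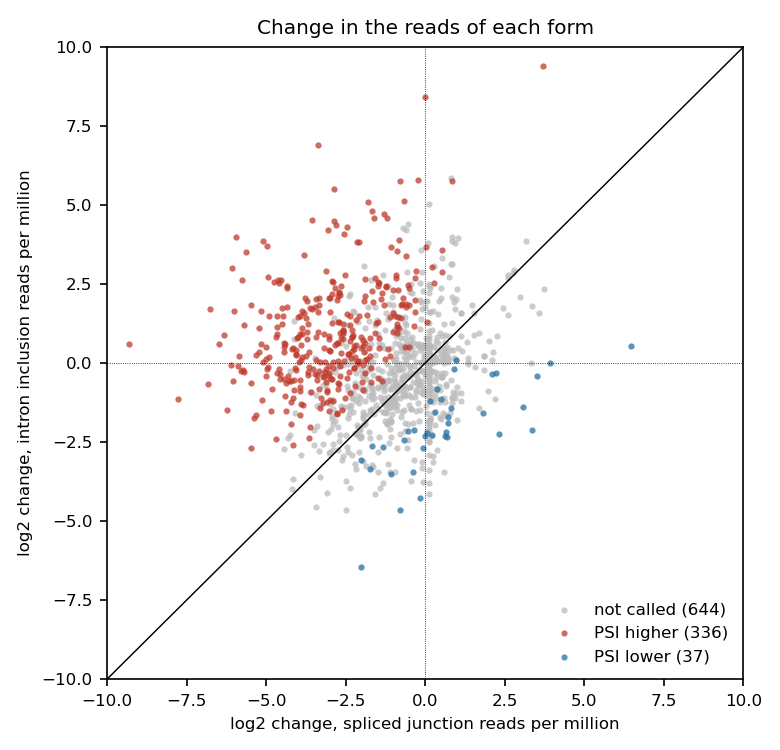
Log2 change (PladB over DMSO, summed over the 2 libraries of each) of inclusion reads (vertical) and of skipping reads (horizontal), both relative to the junction reads of the library, for the 1017 longer introns; counts under 3 were set to 3. Introns called higher (red, 336) lie to the left of and above the line of equal change, those called lower (blue, 37) below it, and many red points sit near 0 on the vertical axis.

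Among the longer introns, the share called higher was largest in the class of 200 to 400 bp. Of the 360 introns over 200 and up to 400 bp, 141 (39.2%) were higher and the median difference in PSI was 0.0512. For 269 introns over 400 and up to 800 bp the share was 32% and the median 0.0259, for 250 introns over 800 and up to 1600 bp 28.4% and 0.0170, and for 138 introns over 1600 bp 27.5% and 0.0242. Lower calls went the other way, from 2.5% in the first class to 3.35%, 4.8% and 5.07%. These classes include the events that hold an exon, which had a median length of 813 bp. The introns that neither overlapped a member nor held an exon had a median length of 537 bp. Length and this property were not separated. As a description across introns, which are not independent replicates and share libraries and depth, Spearman's rho of length and difference in PSI was -0.113 (n = 1017).

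Against the 785 short introns the members' differences were smaller at the median but not by every measure. Short introns were called higher in 299 cases (38.1%) and lower in 17 (2.17%), with a median difference in PSI of 0.0466 and a median length of 101 bp. The median difference of the longer introns minus that of the short ones was -0.0164. The mean PSI gave the same order, since it rose by 0.121 in the longer and by 0.157 in the short introns. The median PSI gave the opposite order, with 0.218 for the longer and 0.168 for the short introns. The exact permutation p for the gap between the 2 sets was 0.333 with either measure, the smallest possible here. The 671 longer introns that neither overlapped a member nor held an exon were higher in 35.3% and lower in 2.53%. Their median difference in PSI was 0.0356, and the short introns were not filtered in this way.

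Near the length limit itself, the 13 introns up to 5 bp above it had differences in PSI from -0.0120 to 0.893 with a median of 0.182, and 7 of them were higher. The 11 introns up to 5 bp below it ranged from -0.0284 to 0.456 with a median of 0.0434, and 5 of them were higher.

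**Figure D4:**
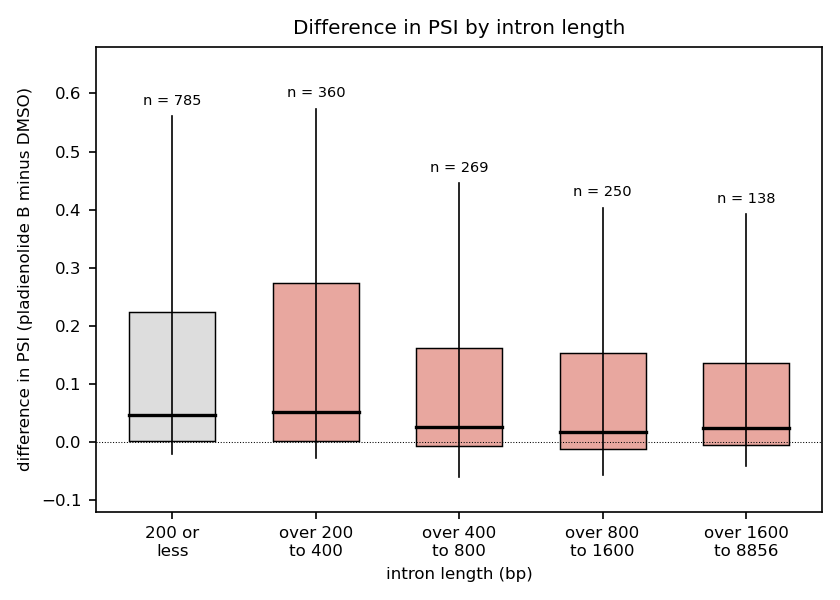
Difference in PSI (PladB minus DMSO) by intron length, with the median (thick line), the middle 50% (box) and the 10th to 90th percentile (thin line); the grey box holds the 785 short introns and the red boxes the longer ones. Medians lie at 0.0466, 0.0512, 0.0259, 0.0170 and 0.0242 from left to right, and the boxes of all length classes overlap.

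How often an intron was called also differed with its level in the control cells, which enters the difference itself and is described without a test. For 540 members with a mean DMSO PSI under 0.1, 185 (34.3%) were higher and 0 could be lower by the limit of 0.1. Among the 183 introns from 0.1 to 0.5, 109 (59.6%) were higher and 14 lower, and the median difference in PSI was 0.254. The 97 introns from 0.5 to 0.9 held 42 higher and 11 lower calls. Of the 197 introns above 0.9, nearly fully retained in DMSO, 12 were lower and none could rise by 0.1. Short introns of the same DMSO classes were called higher in 37.1%, 54.1% and 53.1% of cases in the first 3 classes.

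Host genes of splicing factors held introns that moved in both directions. In total 167 members lay in genes of 12 functional lists. Introns of SR proteins, which bind exonic splicing signals, and of the kinases that phosphorylate them were higher in 4 of 8 cases and lower in 2, with a median difference of 0.193 against 0.0371 over all events. Of all events 35.2% were higher and 3% lower, and no list was tested as a list. The kinase gene Clk2 accounted for 3 of the higher introns, the longest of which spans the other two, and all of them overlap another RefSeq gene. Its 346 bp intron had a PSI of 0.920 and 0.835 in PladB and of 0.189 and 0.172 in DMSO. Clk1, a kinase of the same family, went from 0.448 and 0.482 to 0.775 and 0.765 in an event of 1349 bp that spans an exon.

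Both lower calls of that list were in SR protein genes themselves. The 1229 bp intron of Srsf5 (chr12:80947866-80949094) had a PSI of 0.0901 and 0.114 in PladB and of 0.370 and 0.415 in DMSO, with at least 5464 reads in each library. The event of Srsf3, 2582 bp long and spanning an exon, fell by 0.212. A second Srsf5 intron of 201 bp passed the test but not the limit on size, with 0.0787 and 0.0899 in PladB and 0.00233 and 0.00367 in DMSO. The Srsf5 introns thus moved in opposite directions within 1 gene.

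Of the U2 snRNP and branch site factors, the group that holds the target of the drug, only 2 introns were measured. Snrpa1, the U2 A′ protein, was higher at 0.649 and 0.714 in PladB against 0.305 and 0.365 in DMSO, in an event that spans an exon. U2af1l4, a paralogue of the small U2AF subunit, was not called, at 0.965 and 1.00 in PladB and 1.00 in both DMSO libraries. Its libraries at 1.00 had no skipping read, and with 3 such reads they would read 0.941 to 0.958.

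Other spliceosome proteins were higher in 6 of 16 introns (37.5%, near the 35.2% of all events) and lower in 1, the latter in Luc7l, a U1-associated protein. Syf2, a component of the catalytic spliceosome, had a pair of separate higher introns: that of 324 bp stood at 0.203 and 0.275 in PladB against 0.00931 and 0.00183 in DMSO. Prpf38a, a tri-snRNP protein, was higher in a 1685 bp intron, but its PladB libraries lay apart at 0.122 and 0.273. The most deeply read intron of this list that was not called, in the Sm protein gene Snrpb, had 0.0334 and 0.0364 in PladB and 0.00541 and 0.00365 in DMSO.

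Among hnRNP and related RNA-binding proteins, 1 intron was higher (8.33%), 1 was lower and 10 of 12 were not called, and the median difference was 0.0181. Hnrnph1 passed the limit narrowly with a difference of 0.102 in an event that spans an exon, and without DMSO replicate 2 its difference of 0.0961 was under the limit. Tia1, a protein that binds uridine-rich sequences next to 5′ splice sites, fell from 0.411 and 0.427 in DMSO to 0.0620 and 0.0909 in PladB, also in an event that spans an exon. Hnrnpk had at least 12801 reads in each library and went from 0.00965 and 0.00852 to 0.0483 and 0.0654, a difference of 0.0478 that passed the test but not the limit. RNA helicases were higher in 3 of 7 introns (42.9%). Ddx55, a nucleolar helicase, stood at 0.733 and 0.868 against 0.118 and 0.0931, and Dhx30, a helicase of mitochondrial RNA, at 0.778 and 0.836 against 0.145 and 0.168. The Dhx30 intron overlaps another member. Ddx5 was the 1 lower intron of the helicases, with a difference of -0.169, and Ddx23 was not called, with a difference of 0.0187.

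Translation genes had 4 of 21 introns higher (19%, against 35.2% of all events), 0 lower and a median difference of 0.00660. Of the 4, 3 were in genes of the eIF4A helicases that open messenger RNA for the ribosome. Eif4a2 had 0.175 and 0.224 in PladB against 0.0329 and 0.0333 in DMSO in its 239 bp intron, and Eif4a1 had 0.104 and 0.148 against 0.0255 and 0.0220 in its intron of 247 bp. Both introns hold a snoRNA gene of the RefSeq annotation, and the call of Eif4a1 was lost without PladB replicate 2, where the difference was 0.0805. The ribosomal protein gene Rpl27a had at least 44486 reads in each library, and its intron was not called at 0.00336 and 0.00618 in PladB against 0.00223 and 0.00250 in DMSO. Ribosomal protein genes have near-identical processed copies, so their reads may be shared and these values are uncertain.

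Mitochondrial proteins were higher in 6 of 17 introns (35.3%) and the proteasome and ubiquitin system in 9 of 32 (28.1%), with no lower call in either, beside 35.2% higher and 3% lower of all events. Slc25a22, a mitochondrial glutamate carrier, went from 0.149 and 0.119 to 0.933 and 0.966 in a 523 bp intron that overlaps another member. Its introns of 474 and 504 bp were not called, with differences of 0.0994 and 0.0139. Mrps2, a protein of the small mitochondrial ribosomal subunit, went from 0.0544 and 0.0709 to 0.854 and 0.883, with inclusion reads 4.09 higher on the log2 scale. Usp42, a deubiquitinase, rose to 0.804 and 0.881 from 0.0346 in both DMSO libraries, and Rnf44, a RING finger protein, to 0.919 and 0.944 from 0.168 and 0.134. The Rnf44 intron overlaps another member. The proteasome gene Psma1 was not called, with a difference of 0.00138.

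Cell cycle and p53 pathway genes were higher in 5 of 11 introns (45.5%, against 35.2% of all events) and lower in 0. Cdkn1b encodes p27, an inhibitor of cyclin-dependent kinases. Its 2159 bp intron (chr6:134922084-134924242) had at least 4023 reads in each library and a PSI of 0.979 and 0.966 in PladB against 0.245 and 0.220 in DMSO (adjusted p = 9.03e-312). Ccnl1, a cyclin linked to splicing factor kinases, had 2 higher introns that do not overlap, the longer of which spans an exon. The 253 bp intron of Ccnl1 stood at 0.632 and 0.587 against 0.0506 and 0.0476, and the 1689 bp intron at 0.950 and 0.937 against 0.368 and 0.406. Ccnl2, the paralogue of Ccnl1, had 1 of 3 introns higher, so most of the 5 higher introns of this list lay in these cyclin L genes. Cdk4 was not called, at 0.0334 and 0.0491 against 0.0149 and 0.0160.

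Chromatin regulators had 10 of 21 introns higher (47.6%, against 35.2% of all events) and 1 lower, with a median difference of 0.106 against 0.0371. Chd8, a remodelling ATPase, held one of each: its 205 bp intron rose from 0.0744 and 0.0855 to 0.792 and 0.815, and an event of 756 bp that spans an exon fell from 0.595 and 0.616 to 0.456 and 0.457. Hdac10 went from 0.220 and 0.197 to 0.513 and 0.621, while Hdac3 was not called at 0.0680 and 0.0775 against 0.0438 and 0.0398. Extracellular matrix and cytoskeleton genes, the abundant products of fibroblasts, had 3 of 13 introns higher (23.1%, against 35.2%). A pair of these are overlapping introns of Actr5, an actin-related protein of a nuclear chromatin remodelling complex, which had fewer than 50 reads in a library. The 581 bp intron of Actr5 stood at 0.897 and 0.791 in PladB against 0.0656 and 0.0811 in DMSO, and the 600 bp intron rose by 0.626. The other was in Arpc1b, a subunit of the actin-nucleating Arp2/3 complex, which was called at 0.958 and 1.00 against 0.886 and 0.738, but the call was lost without PladB replicate 2 (adjusted p = 0.103, quasi-binomial model) and without DMSO replicate 2 (adjusted p = 0.160). The intron of the collagen gene Col1a2 had at least 49498 reads in each library and was not called, at 0.0224 and 0.0365 in PladB and 0.0247 and 0.0231 in DMSO.

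Genes that host small nucleolar RNAs (snoRNAs) in their introns had 3 of 8 introns lower (37.5%, against 3% of all events), 1 higher (12.5%) and a median difference of -0.0805. The 3 lower introns were all in Gas5, a noncoding RNA gene whose introns are processed into snoRNAs, and each of them overlaps another member. Its 271 bp intron (chr1:161036853-161037123) had a PSI of 0.0645 and 0.0886 in PladB and of 0.344 and 0.334 in DMSO. Of the 6 Gas5 introns, 3 were not called, and their differences lay between -0.0897 and -0.00673. Taf1d was the higher one, but 1 DMSO library at 0.728 stood apart from the other at 0.969, and without that library, DMSO replicate 2, the difference was 0.00600 (adjusted p = 0.922, quasi-binomial model). Gnb2l1 was not called, at 0.00772 and 0.0114 in PladB and 0.0156 and 0.0128 in DMSO.

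**Figure D5:**
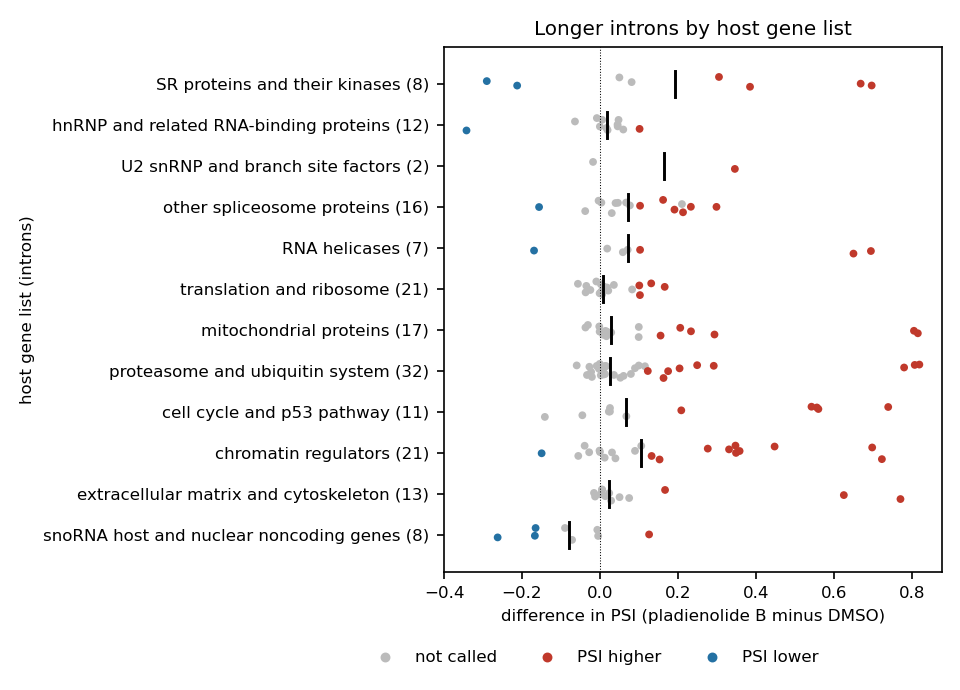
Difference in PSI (PladB minus DMSO) of each longer intron in the 12 host gene lists, with 1 point for an intron, red for higher, blue for lower, grey for not called, and a black bar at the median of the list; the number of introns is in parentheses. Medians run from -0.0805 for snoRNA hosts to 0.193 for SR proteins and their kinases, and every list holds introns with a rise and introns with a fall in PSI.

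Taking the RefSeq annotation rather than the list, 21 members held a snoRNA gene. Of these, 9 were higher and 3 lower, and the 3 lower ones were again those of Gas5. More widely, 89 members overlapped some other RefSeq gene, and 31 of them (34.8%) were higher against 305 of 928 (32.9%) of those that overlapped none. The rMATS default, under which the events were counted, does not use strand, so reads of an overlapping gene could enter the inclusion counts of these 89 introns. By position along the host gene, cut into 3 equal parts, 34.2% of 184 introns in the first part, 32.3% of 322 in the middle part and 31.6% of 450 in the last part were higher. Introns whose length was a multiple of 3 bp were higher in 31% of 335 cases and the others in 34% of 682.

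Several genes carried more than 1 member, which allowed introns of the same transcript unit to be set side by side. There were 174 such genes with 430 introns. In 39 every intron was higher, in 71 none was called, in 47 some were higher and others were not called, in 16 some were lower and others were not called, and in 1, Chd8, both directions occurred. Where only introns that overlap no other member were counted, 86 genes remained, of which 27 had every intron higher, 39 none called and 10 a mixture of higher and uncalled introns. The median span of differences within these 86 genes was 0.0813.

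Some genes had far wider spans, among them genes whose introns overlap other members. In L3mbtl2 the 1233 bp intron near the start of the gene rose by 0.874, while the 854 bp intron near its end was at 0.818 and 1.00 in PladB and 0.968 and 0.962 in DMSO, on as few as 20 reads. In Tnfaip3 the 699 bp intron rose by 0.892 and the 1131 bp intron by 0.337. In Dhx30 the 329 bp intron rose by 0.650, and the distant 421 bp intron, at 0.0991 and 0.0717 against 0.0119 and 0.0166, stayed under the limit. Mapk7, chosen after its values were seen as 1 of 3 genes with the most members, had 6 introns, 5 of which overlap and cluster near the start of the gene. Of the Mapk7 introns 3 were higher, from 0.451 to 0.815, and the others started at a DMSO PSI above 0.83. The other genes with 6 members were Gas5, described above, and Becn1, in which no intron was called (differences from -0.0362 to 0.0863).

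Apart from Mtdh, the 4 longest introns were little retained in either condition. Hace1, with the longest member at 8856 bp, had a PSI of 0.0135 and 0.0125 in PladB and of 0.0528 and 0.0257 in DMSO. Fam53a (6583 bp) stood at 0.0328 and 0.0317 against 0.0184 and 0.015, and Celf2 (3699 bp) at 0.00686 and 0.00927 against 0.00144 and 0.00259. Mtdh (3771 bp), whose event spans an exon, was the exception with 0.927 and 0.858 in PladB and 1.00 in both DMSO libraries, where 3 skipping reads would give 0.860 and 0.867. None of these 4 was called.

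At the other end of depth, small changes could be seen in introns with many reads. Myl12a, a myosin light chain gene with at least 38332 reads in each library, went from 0.000822 and 0.00104 in DMSO to 0.0273 and 0.0319 in PladB. Rpl41 went from 0.00664 and 0.00541 to 0.0382 and 0.0454. Both passed the test (adjusted p = 4.83e-26 and 7.34e-23, quasi-binomial model), and both stayed under the limit of 0.1. In both, the 2 PladB libraries lay well above the 2 DMSO libraries.

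Some introns of middle retention differed little between the groups. Among members with a DMSO PSI from 0.1 to 0.9 and at least 200 reads in every library, the 6 with the smallest difference were in Galt, Alkbh6, Cmtr1, Trmt1, Dgkz and Fuz. Alkbh6, a member of the AlkB dioxygenase family, stood at 0.40 and 0.386 in PladB and 0.373 and 0.372 in DMSO (adjusted p = 0.629). Dgkz, a diacylglycerol kinase, stood at 0.104 and 0.129 against 0.112 and 0.138, so its libraries overlapped (adjusted p = 0.713). These introns were chosen for their small differences, and the p-values do not show that no difference exists.

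The level of the host genes was measured as TPM on the same libraries. Of 761 host genes, 756 had a mean of at least 1 TPM and were tested with limma on log2(TPM + 0.1). In that test 83 (11%) were higher and 605 (80%) lower after pladienolide B, against 15.8% higher and 73.1% lower of the 13221 genes tested. TPM values are shares of a fixed sum, and the 100 highest genes took 42% and 41.8% of it in PladB against 29.3% and 29.6% in DMSO. The median log2 change over all tested genes was -1.13, and centring each library on its median moved every change up by 1.43. After centring, 383 host genes (50.7%) were higher and 277 (36.6%) lower, beside 51.5% and 36.6% of all tested genes. In bulk RNA, a lower level per cell and fewer cells that express a gene cannot be told apart.

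Host genes with a higher intron had a lower median change in TPM than hosts with uncalled introns, on either scale. Among 273 such genes the median log2 change in TPM was -1.59 (-0.17 after centring), 24 were higher and 234 lower, and after centring 95 were higher and 132 lower. For the 512 tested hosts with at least 1 uncalled intron it was -1.02 (0.40 after centring), with 295 higher and 160 lower after centring. The same libraries give both readouts, a gene can stand in both groups, and no test of this difference was made. Across 1012 introns, Spearman's rho of the difference in PSI and the log2 change in TPM of the host was -0.239, as a description.

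Single hosts departed widely from this. Tnfaip3 was at 309 and 335 TPM in PladB against 10.1 and 9.97 in DMSO, a log2 change of 4.99 ± 0.05 (SE), together with its retained introns. Lrdd had 10.5 and 12.1 TPM against 5.66 and 4.91. Id1 had 248 and 250 TPM against 168 and 168. Ing4, in contrast, had 2.98 and 3.12 TPM against 17.2 and 17.0, and L3mbtl2 2.98 and 2.99 against 13.2 and 12.5. Osgin1, with 13.2 and 15.1 TPM against 27.8 and 25.4, was lower as deposited and higher by 0.52 on the log2 scale after centring. Atraid, the gene with the largest fall in PSI, had 66.9 and 71.9 TPM against 68.6 and 70.6 and so did not differ as deposited (adjusted p = 0.938, limma).

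Exons next to the longer introns were read from the SE table, in which PSI is the share of transcripts that include the exon. Of 1097 SE events whose exon borders a member, 86 (7.84%) had a lower exon PSI and 1 (0.0912%) a higher one, by the same test over 54535 SE events. Over all those events the shares were 7.86% lower and 0.138% higher, so exons beside the members as a whole were at the background. For the 364 SE events beside an intron called higher, 59 (16.2%) were lower, and beside introns that were not called 32 of 717 (4.46%). The reads over the junction of the spliced intron count in both tables, so these readouts are not independent, and the difference was not tested.

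Single exons show the size this reached. The 3 genes with the largest falls are given, a choice made after the values were seen, and an exon can have several SE events that differ in the flanking exons. In Sc4mol, the gene of the sterol enzyme methylsterol monooxygenase, an exon of 127 bp next to a retained intron of 997 bp had an exon PSI of 0.214 and 0.185 in PladB and of 1.00 and 0.985 in DMSO. In another event of the same Sc4mol exon it was 0.824 and 0.740 in PladB and 1.00 in both DMSO libraries. The Sc4mol intron itself went from 0.0399 and 0.0377 to 0.611 and 0.623. An exon of Zfp384 beside a 234 bp intron went from 0.974 and 0.985 in DMSO to 0.210 and 0.248 in one event and from 0.926 and 0.954 to 0.512 and 0.458 in another. In Ccnl1 the exon that borders the 1689 bp intron went from 1.00 in both DMSO libraries to 0.368 and 0.382 in one event and to 0.602 and 0.679 in another. Retention and skipping thus occurred side by side in Sc4mol, Zfp384 and Ccnl1.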

How the data were processed

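Stranded mRNA libraries of the fibroblast line were aligned by the authors to both parental genomes with HISAT2 (version 2.0.1 in the submitters' processing notes) and splicing events counted with rMATS at default settings. The deposited tables (mm10 coordinates) give inclusion and skipping read counts per library as comma-separated lists, with form lengths as scores. The first list was read as PladB and the second as DMSO from the order of the groups in the name of the table, and no other label states it. The RI and SE tables use the same order, since skipping counts at all 256 junctions they share were equal in the 4 libraries. Positions within a list carry no replicate label and only name libraries. The deposited TPM values were made by the authors with featureCounts; 14 columns of other samples in that table were not used, nor were the deposited columns of p-values, false discovery rates, inclusion levels and their differences.

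PSI was recomputed from counts and form lengths. Each event was tested with a quasi-binomial logistic model (dispersion moderated with limma 3.58.1 on a depth trend, floor of 1, F test) over 1802 RI or 54535 SE autosomal events with at least 20 reads in every library. TPM was tested with limma on log2(TPM + 0.1) over genes with a mean of at least 1. On simulated data with the RI depths, 55% of changes of 0.15 and 88% of changes of 0.3 were recovered, with 1.38% false calls. For 54535 SE events these were 32%, 57% and 6.32%. These changes were made in the share of inclusion reads without form lengths, not in PSI. Only events where that share was neither very low nor very high were changed, so recovery in other events was not measured. The simulated spread was the one the model had estimated from these libraries. The shares of false calls therefore hold only where that estimate is right. For 13221 genes 78.5% of 2-fold changes (log2 of 1) were recovered, with 1.88% false calls. Named introns were the 10 largest rises and 6 largest falls (at least 50 reads in every library, groups not overlapping, 1 for each gene), the 2 largest rises under the same conditions and the most deeply read uncalled intron of each list, the 4 longest, the 4 most deeply read and the 6 smallest differences, of which 1 intron is not reported here; others are named where a count or a direction needs them, after their values were seen. The members, lists and tests were chosen with earlier results of these data known. Exons and RefSeq genes (GRCm38.p6) within introns were found by position; 1012 of 1017 host symbols matched RefSeq. The comparison of read forms set counts under 3 to 3. PSI values at a floor of 3 reads cover counting error only.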

Additional observations from a re-analysis of the deposited data

How the results depend on the processing

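Under the alternatives run, the counts of longer introns with higher PSI lay between 236 and 394 except with a minimum length of 500 bp, which left 565 introns (169 higher and 24 lower). Leaving out 1 library at a time gave 300 to 340 higher and 32 to 44 lower introns, a median difference in PSI of 0.0243 to 0.0385 (0.0385 without PladB replicate 1) and -0.0191 to -0.0157 for longer minus short introns. Of the 336 higher introns, 294 to 323 were kept in these fits. A limit of 0.2 left 20 lower introns and 49 exons with lower PSI. Longer minus short introns came to -0.0182 with a minimum of 10 reads, -0.0189 with a minimum of 1 read, -0.0215 with a minimum length of 300 bp and -0.0265 without form lengths; the cause was not tested. Chosen after seeing the data, limma on the log2 ratio of the forms gave 312 higher and 34 lower introns, of which 312 and 31 were among the main calls, and leaving out introns that overlap a member or hold an exon gave 237 and 17. Leaving out introns that overlap another RefSeq gene and centring TPM on the median were also chosen after seeing the data. The first gave 305 higher and 32 lower introns. Centring gave 383 host genes higher and 277 lower, by construction of the shift, and turned the log2 change of Osgin1 to 0.52, Gtpbp2 to 0.060, Guf1 to 0.058, Cope to 1.25, Tle2 to 0.032 and Atraid to 1.42. Leave-one-out gave 75 to 85 host genes higher and 581 to 607 lower, 73 to 92 exons lower, and 0 to 1 exon higher; a minimum of 50 reads gave 0 exons higher of 966 in the quasi-binomial model.

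A replicate block gave 335 higher and 37 lower introns, 81 host genes higher and 600 lower, and 86 exons lower and 1 higher; it changed the call of no named intron or gene. Replicates of the same position did not deviate together (r = 0.00500 for PSI over the members and -0.0159 for log2 TPM), so the numbers were not taken as pairs. Fits with edgeR and DESeq2 were planned and not run: the deposited counts are comma-separated lists of libraries, which were not treated as count columns. Of 847 values of single introns and genes under alternatives, 819 kept their direction and side of the threshold, 20 lost their call, 2 gained one and 6 changed sign. Depth limits the members with the fewest reads: the lowest had 20 reads in a library.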
